A study of Mus musculus with 12 samples.

Results

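The proteasome genes measured here are the 48 rows whose symbols run from Psma to Psmg followed by a number, out of 22552 rows in each of 3 deposited stage tables. In the deposited table for the Tet1 knockout, 46 of them are listed among 16394 rows, and Psmb8 and Psmb11 are not. The 48 genes fall into 11 roles. They comprise 7 alpha ring genes (Psma1 to Psma7) and 7 beta ring genes (Psmb1 to Psmb7), 3 immunoproteasome genes, the thymus gene Psmb11 and the testis gene Psma8. The regulatory particle is represented by 6 base ATPases (Psmc1 to Psmc6), 11 non-ATPase subunits and 3 assembly chaperones. The set is completed by 4 activators, 1 inhibitor and 4 assembly chaperones of the core.

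The proteasome is the protease that degrades ubiquitin-tagged proteins in the cytosol and nucleus. Its core is a barrel of stacked alpha and beta rings, in which Psmb5, Psmb6 and Psmb7 carry the proteolytic sites, and the regulatory particle binds the ends of the barrel, unfolds the substrate with its ATPases and removes the ubiquitin chain. Alternative subunits exchange for constitutive ones in particular cells: Psmb8, Psmb9 and Psmb10 in immune cells or after interferon, Psmb11 in the thymic cortex, and Psma8 in meiotic male germ cells.

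RNA was sequenced from primordial germ cells, the embryonic precursors of eggs and sperm, of C57BL/6 mice. The wild-type groups were E9.5 (2 libraries), E11.5 (2 libraries) and E13.5m (3 libraries), each made from 400 to 5000 cells, and WT at embryonic day 13.5 (3 libraries), made from 500 to 2000 cells. The Tet1-KO group had the genotype Tet1 -/- at embryonic day 13.5 (2 libraries, 500 to 2000 cells). Tet1 encodes an enzyme that oxidises methylated cytosine in DNA, and the labels used here do not describe the allele. A further column, E13.5f, is named in a deposited table, and it is described under that name because no sample title carries it. How the germ cells were sorted, and how many embryos were pooled, is not given in the sources used here. The stage comparisons ask how the transcriptome differed along germ cell development, and the knockout comparison asks how it differed without Tet1.

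Each group has 1 FPKM value per gene (fragments scaled to transcript length and library total), which the authors pooled from the replicate libraries. No value per library was used here, so the spread between libraries enters only through the deposited Cuffdiff test, and errors below are the standard errors (SE) of a log2 ratio that this test implies. Whether replicate libraries came from separate embryos is not stated, so the spread between libraries that enters the p-values may be technical. The p-values come from the error model of Cuffdiff, and how far it reflects the spread of each gene was not examined. Sequencing depth is unknown. The Tet1 transcript was at 6.36 FPKM in WT and at 0.218 FPKM in the knockout. Its log2 ratio of -4.87 had an SE of 0.67 (FDR 1.55e-10 in the authors' deposited table). All 8 germ cell markers examined, among them Pou5f1, Ddx4 and Dazl, were at 1 FPKM or more in every column. Summed blood markers (10 genes) were at 1992 FPKM at E9.5, of which the globins Hbb-y, Hba-x and Hbb-bh1 made up 869, 625 and 494 FPKM, and at 33.1 FPKM at E11.5. Their sum was 5.68 FPKM at E13.5f, 24.4 FPKM at E13.5m, 5.10 FPKM in WT and 1.15 FPKM in Tet1-KO. Summed gonadal somatic markers (8 genes) were at 0 at E9.5 and 2.67 FPKM at E11.5, at 2.38 and 14.6 FPKM at E11.5 and E13.5m, at 2.32 and 4.76 FPKM at E11.5 and E13.5f, and at 4.62 and 8.04 FPKM in WT and Tet1-KO. Of 7 endothelial markers, Esam (0.141 to 10.1 FPKM) and Tek (0.104 to 1.64 FPKM) rose from E9.5 to E11.5 and both fell to E13.5f, and Esam fell to E13.5m, while Kdr was listed at 0 at E9.5 and E11.5. Pecam1, which germ cells also express, was between 40.5 and 98.5 FPKM. The part of other cells in the proteasome values was not tested. In these bulk samples, fewer cells of a type and less RNA per cell cannot be told apart. The E11.5 column is the same measurement in all 3 stage tables, multiplied by constant factors of 0.870 (E13.5f table) and 0.891 (E13.5m table) relative to the E9.5 table. Over the 44 proteasome genes compared, the WT value was 0.976 to 1.06 times the E13.5f value, with a median of 1.05, so these columns are not independent measurements.

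Proteasome genes were among the most abundant transcripts of the germ cells at every stage. Their summed FPKM was 1.91% of the column total at E9.5, 2.04% at E11.5, 1.87% at E13.5f, 2.06% at E13.5m, 1.90% in WT and 1.84% in Tet1-KO, leaving out of every column 5 rows that Cuffdiff skipped in at least 1 E13.5 column. The median proteasome gene stood at 225 FPKM at E9.5 and 325 FPKM at E11.5, whereas the median row at 1 FPKM or more stood at 13.3 and 16.1 FPKM. In the E9.5 column, 34 of the 48 genes were at 100 FPKM or more and 33 were within the top 10% of rows. The remainder were low for different parts of the machinery: 3 genes were under 2 FPKM at E9.5 and 4 at E11.5, and these belong to the immunoproteasome and thymus subunits.

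FPKM is scaled to transcript length, so levels are set side by side between genes here. The RNA was amplified as cDNA before sequencing, and the part of amplification in differences between genes was not tested. Among the 31 constitutive genes of the core and regulatory particle, whose proteins are built into 1 particle in fixed numbers, the highest value was 12.1 times the lowest at E9.5 and 9.82 times at E11.5. Psma3, an alpha ring subunit, was lowest at both stages (52.6 and 66.5 FPKM), and Psmc5, an ATPase of the base, was highest (635 and 653 FPKM). At E13.5f, in WT and in Tet1-KO, Psma5 was lowest and Psmb2, a non-catalytic beta subunit, was highest. In WT these were 58.4 and 735 FPKM. At E13.5m, on the scale of its own table, the lowest gene was again Psma3 (67.3 FPKM) and the highest was Psmd12 (725 FPKM), a scaffold subunit of the regulatory particle lid. The rank order of the 31 genes was close between E9.5 and E11.5 (Spearman's rho 0.93 across genes) and between WT and Tet1-KO (rho 0.88). The genes are not independent replicates, the columns of a table were normalised together, and transcript length enters both alike, so these coefficients are descriptions. Part of the order rests on genes with near-identical copies elsewhere in the genome. In the GENCODE vM21 transcripts, 23 of the 48 genes share no 50-base window with another gene, 14 share over 10% of windows, and 4 share over 50%, namely Psma5 (55.4%), Psmb3 (55.8%), Psmb5 (57.1%) and Psme2 (59.3%, with Psme2b). The levels of these 4 genes are uncertain, since reads from shared windows could have been split or lost.

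**Figure D1:**
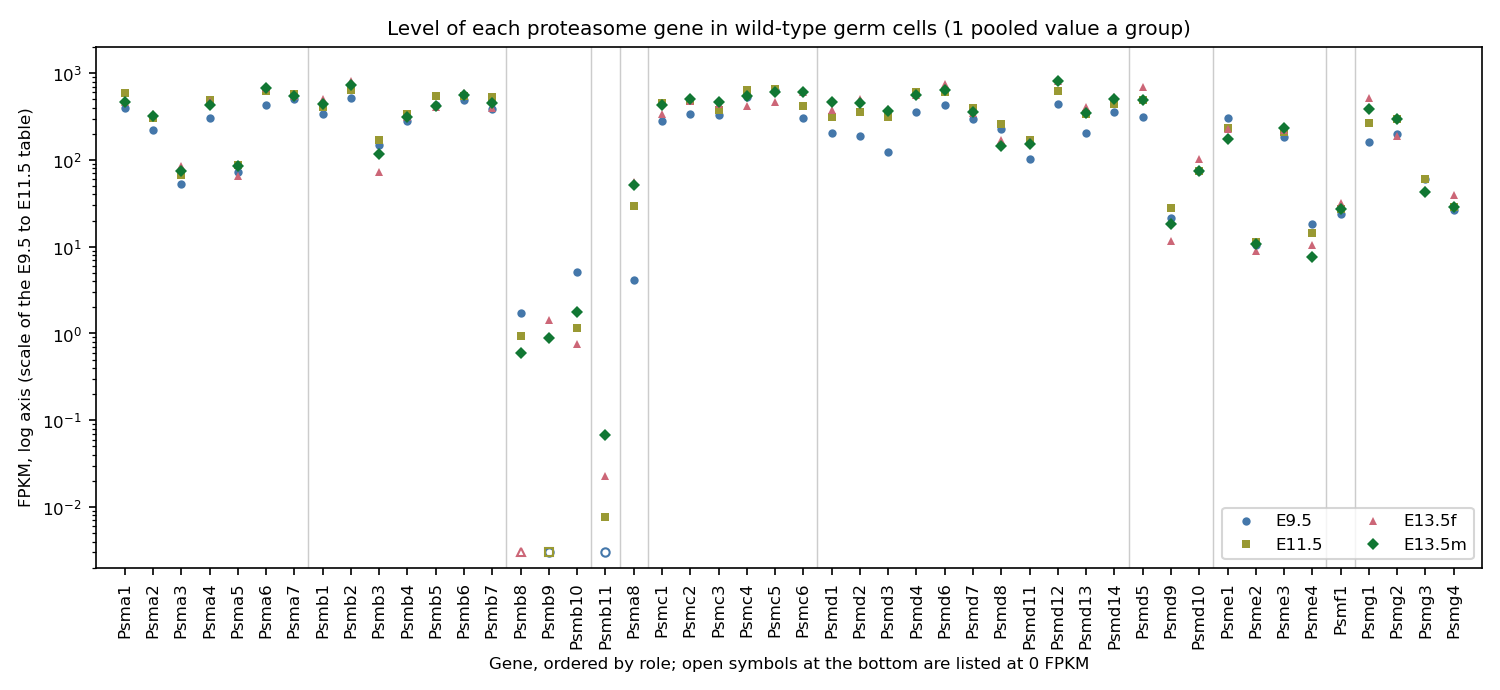
FPKM of each of the 48 proteasome genes in the 4 wild-type stage columns on a log axis, grouped by role, with all columns brought to the scale of the E9.5 table through the shared E11.5 column; each symbol is 1 pooled value, with no error bar because no value per library was used; open symbols on the bottom line mark values listed at 0. Most genes of the core and regulatory particle lie above 100 FPKM, while Psmb8, Psmb9, Psmb10 and Psmb11 lie at the bottom, and Psma8 lies between them, at 4.11 FPKM at E9.5 and 29.5 FPKM at E11.5.

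Of the activators, Psme1 and Psme3 were far more abundant than Psme2 and Psme4 in every column. Psme1, the alpha subunit of the PA28 cap, was at 307 FPKM at E9.5, 235 FPKM at E11.5, 224 FPKM at E13.5f and 175 FPKM at E13.5m. The stage columns of the activators, the inhibitor and the alternative beta subunits are given on the scale of the E9.5 table. In the knockout table Psme1 was at 206 FPKM in WT and 174 FPKM in Tet1-KO. Its partner Psme2, the beta subunit, was between 7.56 and 11.2 FPKM in all columns, with the reservation that Psme2b shares most of its sequence. Psme3, the nuclear PA28 gamma subunit, was between 144 and 232 FPKM. Psme4, the PA200 cap known for its role in spermatogenesis, was at 18.3 FPKM at E9.5, 14.6 FPKM at E11.5, 10.6 FPKM at E13.5f and 7.68 FPKM at E13.5m. No activator was called by Cuffdiff in any table, and 0 had an unadjusted p under 0.05. Psmf1, the inhibitor PI31, was between 19.8 and 32.0 FPKM.

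The alternative subunits were far below their constitutive counterparts in every column. Psmb5 (chymotrypsin-like site), Psmb6 (caspase-like site) and Psmb7 (trypsin-like site) were at 432, 487 and 391 FPKM at E9.5 and at 539, 540 and 531 FPKM at E11.5. Psmb8, which replaces Psmb5, was at 1.71 FPKM at E9.5 and 0.936 FPKM at E11.5, was listed at 0 at E13.5f, and was at 0.595 FPKM at E13.5m. Psmb9, which replaces Psmb6, was listed at 0 at E9.5 and E11.5, and was at 1.41 FPKM at E13.5f, 0.886 FPKM at E13.5m, 1.08 FPKM in WT and 1.07 FPKM in Tet1-KO. Psmb10, which replaces Psmb7, was at 5.10 FPKM at E9.5, 1.16 FPKM at E11.5, 0.747 FPKM at E13.5f, 1.75 FPKM at E13.5m, 0.661 FPKM in WT and 0.213 FPKM in Tet1-KO. Each immunoproteasome gene thus made up at most 1.29% of the sum with its counterpart, the value of Psmb10 at E9.5. The E9.5 column with the most Psmb10 was also the column with the summed blood markers at 1992 FPKM, almost all of it from the 3 embryonic globins. Of the 7 leukocyte markers of the list, Ptprc, Lyz2, Laptm5 and Csf1r were listed at 0 there, while Cd52 was at 0.593 FPKM, Tyrobp at 0.813 FPKM and Coro1a at 2.73 FPKM. The part of other cells in the Psmb10 value was not tested. None of the 3 genes was called by Cuffdiff in any table in which it was listed, and unadjusted p was under 0.05 only for Psmb8 from E11.5 to E13.5f (p = 0.0453 in the authors' deposited table). Psmb11 was listed at 0 at E9.5 and was at most 0.0681 FPKM elsewhere, and Cuffdiff made no test of it.

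The promoters of the inducible subunits Psmb8 and Psmb9 and of their counterparts Psmb5 and Psmb6 are shown because the pairs differ so far in level. Psmb10 is not shown, since its window held no match to the motifs searched, and Psmb7 had no window. The 250 bases before the annotated start are from RefSeq on GRCm38.p6, 5′ to 3′ in the direction of the gene, and capitals mark the single match found in each window. The antioxidant response element core TGACNNNGC, bound by the NRF1 and NRF2 factors that act on proteasome genes, was found 47 bases before the start of Psmb5 and 9 bases before that of Psmb6. The interferon gamma activated site core TTCNNNGAA was found 97 bases before the start of Psmb8, and a CCAAT box on the opposite strand 8 bases before that of Psmb9.
Psmb5, chr14:54617996-54618245, minus strand: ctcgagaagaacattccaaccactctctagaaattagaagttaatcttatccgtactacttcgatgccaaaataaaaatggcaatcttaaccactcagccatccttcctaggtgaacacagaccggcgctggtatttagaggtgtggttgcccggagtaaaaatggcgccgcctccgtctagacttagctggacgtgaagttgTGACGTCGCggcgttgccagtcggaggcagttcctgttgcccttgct
Psmb6, chr11:70525107-70525356, plus strand: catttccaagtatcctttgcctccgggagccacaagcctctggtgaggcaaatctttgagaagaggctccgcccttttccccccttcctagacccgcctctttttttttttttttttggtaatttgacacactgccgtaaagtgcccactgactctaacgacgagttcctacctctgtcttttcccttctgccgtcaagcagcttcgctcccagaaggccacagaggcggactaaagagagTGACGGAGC
Psmb8, chr17:34197945-34198194, plus strand: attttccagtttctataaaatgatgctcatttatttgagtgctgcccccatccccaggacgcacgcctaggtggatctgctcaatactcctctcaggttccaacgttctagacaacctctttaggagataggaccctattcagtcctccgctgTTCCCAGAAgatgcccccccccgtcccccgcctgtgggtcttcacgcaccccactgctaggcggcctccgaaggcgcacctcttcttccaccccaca
Psmb9, chr17:34187331-34187580, minus strand: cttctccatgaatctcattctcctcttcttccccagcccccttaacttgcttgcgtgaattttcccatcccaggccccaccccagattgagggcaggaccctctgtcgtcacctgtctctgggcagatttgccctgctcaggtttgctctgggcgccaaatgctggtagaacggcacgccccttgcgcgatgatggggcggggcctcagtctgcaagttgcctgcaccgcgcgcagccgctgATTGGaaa
These matches are descriptions and not sites of binding. Of the 48 genes, 40 had a promoter window. A gene was counted for a motif if any of its windows held it. TGACNNNGC was found on either strand in 5 of them (12.5%; Psmb5, Psmb6, Psmc6, Psmd9 and Psmd12) and in 11.5% of 27025 genes with windows of the same length. TTCNNNGAA was found in 2 (5%; Psmb8 and Psmg1) and in 8.13% of all. The interferon-stimulated response element core (GAAA, any 2 bases, GAAA) was found in 3 (7.5%; Psmb3, Psmd4 and Psmd9) and in 3.46%. None of these 3 is an immunoproteasome gene. CCAAT was found in 14 (35%) and in 37.5%. CpG dinucleotides were counted in the first window of each gene. The proteasome windows held a median of 14, against 6 over all genes, and 30 of 40 (75%) held 10 or more, against 38.2%. The base ATPases held 14 to 34 CpGs in the 5 windows available, whereas Psmb10 held 3 and Psmb11 held 4. Psma6, an alpha ring gene at 427 FPKM at E9.5, held 2, so a high level did not go with many CpGs in every gene.

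Psma8 was the alternative subunit that rose. It lies at chr18:14864659-14920808 in mm9, the build of the files, and was at 4.11 FPKM at E9.5 and 29.5 FPKM at E11.5. The log2 ratio was 2.84 (SE 0.82, q = 0.0157 in the authors' deposited table), and it stayed called when measured relative to the table's median (log2 2.52; 1.87% of all rows were called higher on that scale). It was at 48.6 FPKM at E13.5f and 45.3 FPKM at E13.5m, beside 25.6 and 26.2 FPKM at E11.5 in those tables. These log2 ratios of 0.92 (SE 0.47) and 0.79 (SE 0.49) were not called. In the knockout comparison it was at 50.8 FPKM in WT and 31.0 FPKM in Tet1-KO. This log2 ratio of -0.71 (SE 0.37) was not called either (FDR 0.239 in the authors' deposited table). Its constitutive counterpart Psma7 was at 503 FPKM at E9.5 and 582 FPKM at E11.5. Psma8 therefore made up 0.81% of the Psma7 and Psma8 sum at E9.5, 4.82% at E11.5, 9.32% at E13.5f, 8.50% at E13.5m, 9.27% in WT and 6.48% in Tet1-KO. Psma8 shares no 50-base window with Psma7 in the reference transcripts.

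**Figure D2:**
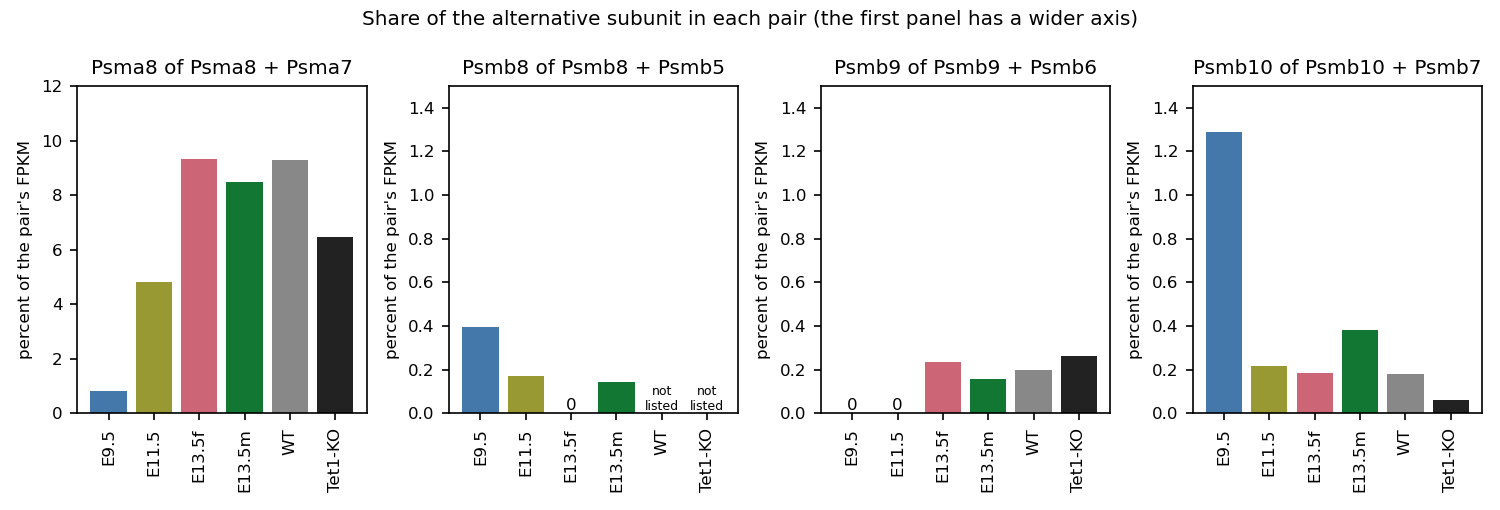
Share of each alternative subunit in the sum with its constitutive counterpart (percent of summed FPKM, linear axes from 0), 1 bar per pooled column with no error bar because no value per library was used; the axis of the Psma8 panel is wider. Psma8 goes from 0.81% at E9.5 to 9.32% at E13.5f, while Psmb8, Psmb9 and Psmb10 stay at or below 1.29% in every column.

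From E9.5 to E11.5 most proteasome genes had higher FPKM, to about the same extent as other genes, and 2 were called. Of 46 genes tested, 42 were higher and 4 lower at E11.5, beside 67.0% of all rows tested that were higher. The calls, made by the authors at q of 0.05, were Psma8 and Psmd3, both higher (3.71% of all 12904 rows tested were called higher and 1.92% lower). Psmd3, a structural subunit of the regulatory particle lid at chr11:98543867-98557292 in mm9, was at 124 FPKM at E9.5 and 313 FPKM at E11.5. Its log2 ratio was 1.34 (SE 0.44, q = 0.0481 in the authors' deposited table), and relative to the table's median the log2 ratio was 1.02 and was not called. Besides these, the scaffold subunit Psmd2 (187 and 353 FPKM, log2 0.92, SE 0.43), had an unadjusted p under 0.05, which makes 3 genes of 46 beside 19.8% of all rows. The median log2 ratio was 0.34 over the proteasome genes and 0.32 over the 9685 rows at 1 FPKM or more in both columns, so the shift was that of the whole table.

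The medians of the roles lay at different places around that median, and the differences between roles were not tested. The 17 subunits of the regulatory particle were all higher at E11.5, with a median log2 ratio of 0.49, and 12 lay above the table's median. The 14 constitutive core genes were also all higher, with a median of 0.33, and 8 lay above the table's median. Over all rows, 67.0% of those tested were higher, and 49.4% of those with an SE lay above the table's median. Psma4 had the largest ratio of the core (300 and 489 FPKM, log2 0.70, SE 0.46). Psmc1 had the largest of the ATPases (281 and 455 FPKM, log2 0.69, SE 0.44), and Psmc5 the smallest (log2 0.04, SE 0.44). The 4 activators all lay below the table's median, and Psme1 had the lowest ratio (log2 -0.39, SE 0.47). Of the chaperones, Psmd5, which holds ATPases during assembly of the base, was at 312 and 491 FPKM (log2 0.65, SE 0.43). Psmg1, which with Psmg2 forms the dimer that assembles the alpha ring, was at 162 and 266 FPKM (log2 0.72, SE 0.48). None of these was called, and each ratio was within 2 SE of 0.

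**Figure D3:**
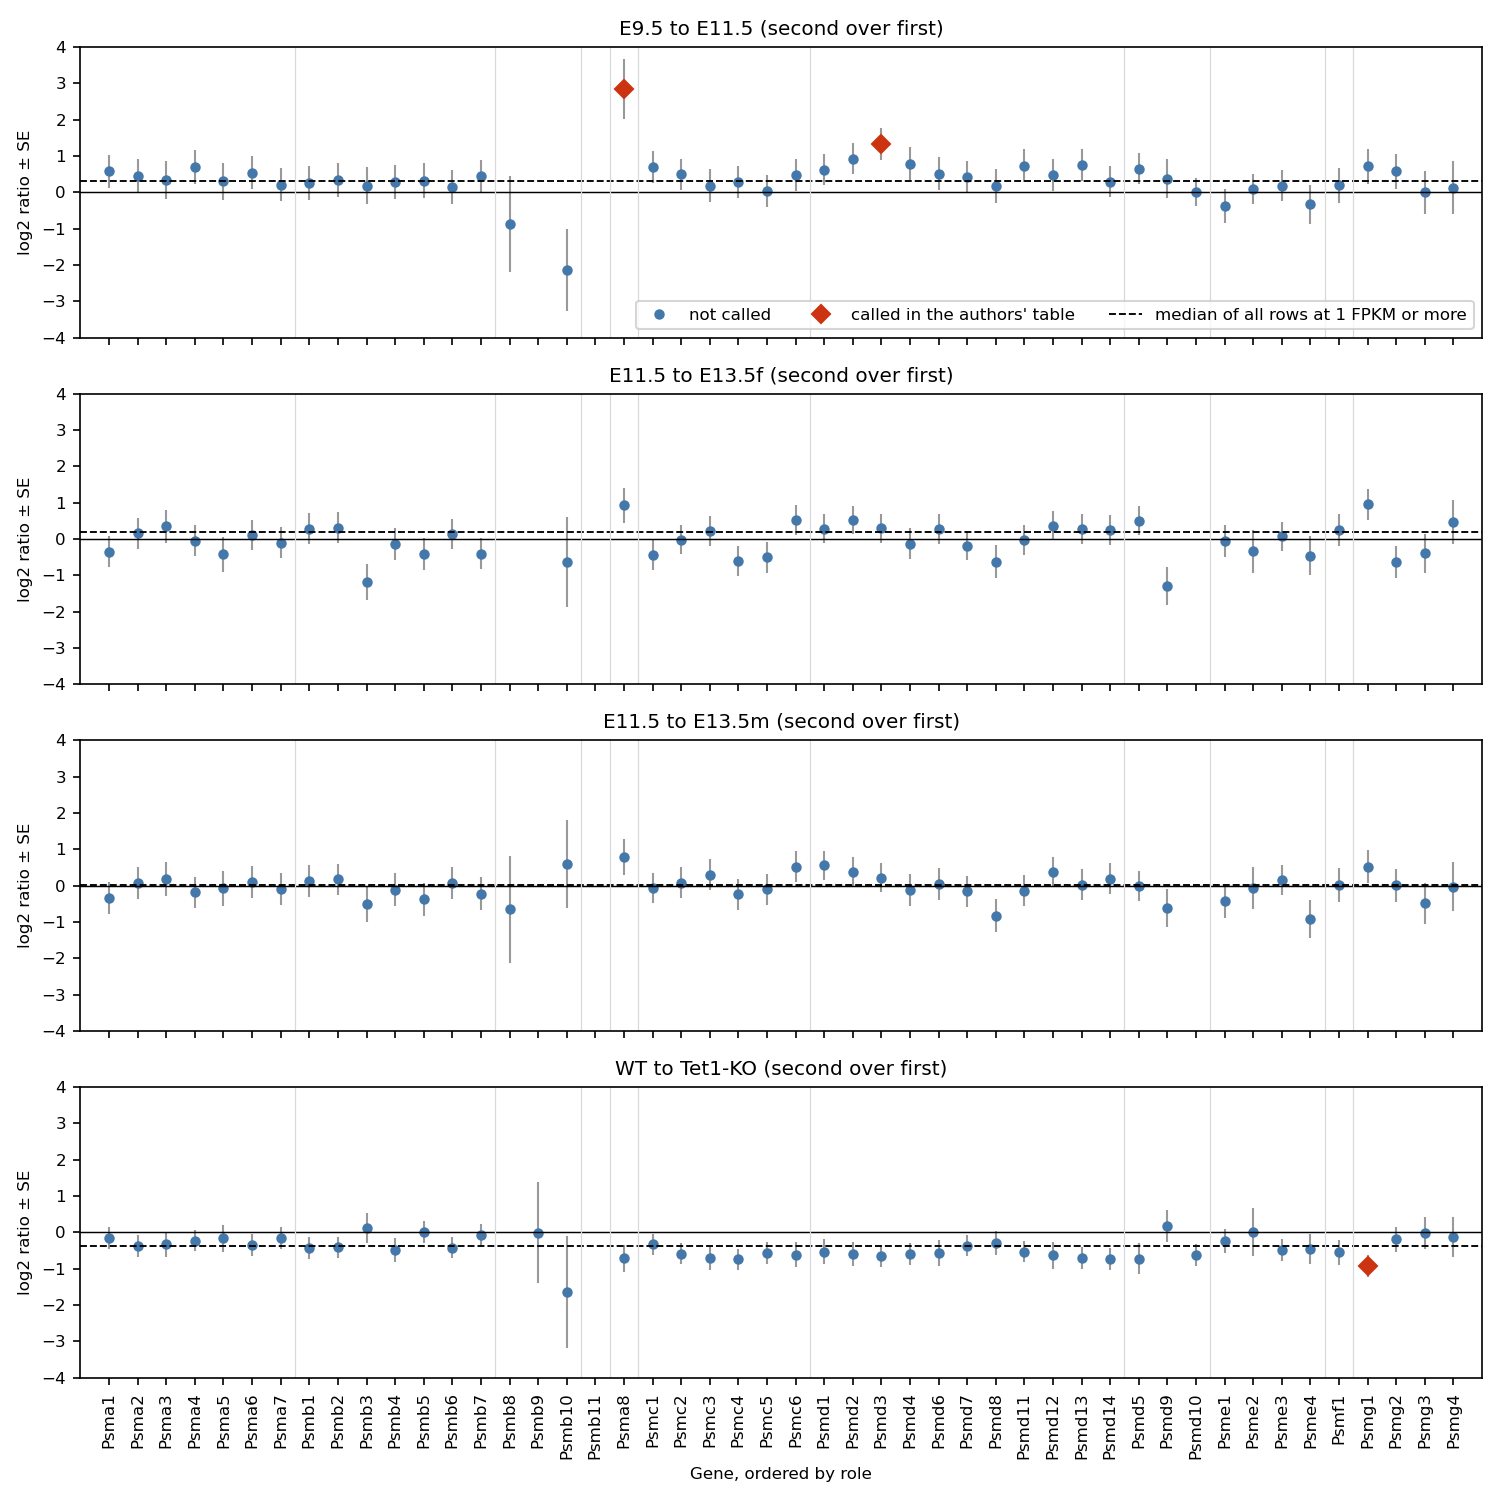
Log2 ratio of FPKM for each proteasome gene, grouped by role, in the 4 deposited comparisons; bars are 1 SE as the authors' test implies, diamonds are genes called in the deposited tables, the dashed line is the median of all rows at 1 FPKM or more, and genes without an SE are not drawn. The genes lie around that median, at 0.32 from E9.5 to E11.5 and at -0.38 from WT to Tet1-KO, and the called genes are Psma8, Psmd3 and Psmg1.

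From E11.5 to E13.5 no proteasome gene was called by Cuffdiff, in a table where calls were common for E13.5f. For E13.5f, 46 genes were tested and 0 were called, beside 9.34% of all 12448 rows tested that were called higher and 2.68% called lower. Unadjusted p was under 0.05 for 4 genes, beside 26.5% of all rows. The genes were split into 22 higher and 24 lower, while 62.2% of all rows were higher. The median log2 ratio was -0.02, against 0.19 over all rows at 1 FPKM or more. For E13.5m, 46 were tested, 0 were called (2.94% of all 12311 rows were called higher and 1.94% lower), and 0 had an unadjusted p under 0.05, beside 17.2% of all rows. The median log2 ratio was -0.02, against 0.02 over all rows. Both tables share the E11.5 libraries, so the proximity of their medians is not independent. Psmd10, the oncoprotein gankyrin that chaperones the base, had a failed test in both tables (64.6 FPKM at E11.5 and 89.0 FPKM at E13.5f; 66.2 FPKM at E11.5 and 66.4 FPKM at E13.5m).

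The genes with the lowest unadjusted p at E13.5f were a beta subunit and 2 types of chaperone. Psmb3, a non-catalytic beta subunit at chr11:97564747-97574814 in mm9, was at 146 FPKM at E11.5 and 63.6 FPKM at E13.5f (log2 -1.20, SE 0.49, q = 0.0930 in the authors' deposited table). Psmd9, which chaperones the base and lies at chr5:123678198-123700134 in mm9, was at 24.5 FPKM at E11.5 and 10.05 FPKM at E13.5f (log2 -1.28, SE 0.52, q = 0.0849 in the authors' deposited table). Relative to the table's median, at 0.19, both of these were called lower (4.01% of all rows were called lower on that scale). In the E13.5m table Psmb3 was at 149 and 106 FPKM (log2 -0.50, SE 0.50) and Psmd9 at 25.1 and 16.4 FPKM (log2 -0.61, SE 0.52), neither called. Psmg1 was at 232 FPKM at E11.5 and 448 FPKM at E13.5f (log2 0.95, SE 0.43, q = 0.132 in the authors' deposited table), and at 237 and 342 FPKM in the E13.5m table (log2 0.53, SE 0.45). Its partner Psmg2 was at 254 and 163 FPKM in the E13.5f table and at 260 and 262 FPKM in the E13.5m table.

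Within the particle, values went both ways. Psmc6 was higher at E13.5f (368 and 531 FPKM, log2 0.53, SE 0.41), while its fellow ATPases Psmc4 (559 and 368 FPKM, log2 -0.60, SE 0.42) and Psmc5 (568 and 399 FPKM, log2 -0.51, SE 0.42) were lower. Of the lid and base subunits, Psmd2 had a log2 ratio of 0.52 (SE 0.39), and Psmd8 had one of -0.62 (SE 0.45). At E13.5m the largest ratio of the non-ATPase subunits was that of Psmd1, a scaffold of the base (278 and 409 FPKM, log2 0.56, SE 0.41), and the lowest was again that of Psmd8 (230 and 129 FPKM, log2 -0.83, SE 0.46). None of these was called.

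No proteasome gene differed detectably between E13.5m and E13.5f. No deposited table sets these columns against each other, so the difference of their log2 ratios against E11.5 was tested with a two-sided normal test, Benjamini-Hochberg adjusted over 11314 rows. Of 44 proteasome genes with both errors, 0 were called (0.115% of all rows were called with E13.5m above and 0.0354% with E13.5f above), and 0 had an unadjusted p under 0.05, beside 3.63% of all rows. The test counts the shared E11.5 libraries in both errors and is conservative. The smallest unadjusted p was that of Psmg2 (0.306, higher in E13.5m by 0.65 on the log2 scale, SE 0.63, 95% interval -0.59 to 1.89). The lowest difference was -0.52 for Psmd5, with an SE of 0.57. The median difference, E13.5m over E13.5f, was -0.01 over the proteasome genes and -0.24 over all 11314 rows, and the test was not centred on it. The median SE of the difference was 0.61, so a difference would have had to be well above that size to be called.

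Without Tet1 nearly all proteasome genes had lower FPKM, as did most genes in that table, and 1 was called. Of 46 genes tested, 42 were lower and 4 higher in Tet1-KO, beside 67.6% of all rows that were lower. The median log2 ratio was -0.44 over the proteasome genes and -0.38 over the 10325 rows at 1 FPKM or more in both columns. The column total itself was lower by a log2 ratio of -0.42. The 1 gene called lower was Psmg1 (0.677% of all rows tested were called higher and 5.48% lower). It was at 471 FPKM in WT and 248 FPKM in Tet1-KO (log2 -0.93, SE 0.31, FDR 0.0476 in the authors' deposited table). Relative to the table's median the ratio was -0.55, and the call was lost (1.52% of all rows were called lower on that scale). Psmg1 lies at chr16:96201541-96212510 in mm9. Its promoter, given because Psmg1 was the gene called here, held 23 CpGs in the 250 bases before the start (RefSeq, GRCm38.p6, 5′ to 3′ in the direction of the gene), and capitals mark a TTCNNNGAA match 243 bases before the start.
Psmg1, chr16:95990961-95991210, minus strand: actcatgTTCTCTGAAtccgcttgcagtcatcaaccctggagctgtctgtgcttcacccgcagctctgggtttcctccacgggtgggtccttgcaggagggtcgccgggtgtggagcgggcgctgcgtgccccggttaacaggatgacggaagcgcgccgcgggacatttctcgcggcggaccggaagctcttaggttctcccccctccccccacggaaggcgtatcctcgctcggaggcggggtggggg
No methylation was measured in these tables, so nothing follows from the CpG count for the value in the knockout.

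Unadjusted p was under 0.05 for 8 of the 46 genes in the knockout table, beside 21.4% of all rows. Besides Psmg1 and the chaperone Psmd10 (93.3 and 60.7 FPKM), these were 6 subunits of the regulatory particle. Psmc4 was at 386 FPKM in WT and 232 FPKM in Tet1-KO (log2 -0.74, SE 0.29). Psmd14, the deubiquitinase of the lid, was at 479 and 289 FPKM (log2 -0.73, SE 0.31). Psmc3, Psmd13, Psmd3 and the ubiquitin receptor Psmd4 had log2 ratios of -0.72, -0.71, -0.65 and -0.59. None of these 6 was called. Relative to the table's median their log2 ratios were from -0.36 (Psmc4) to -0.21 (Psmd4), and none was called on that scale either.

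The medians of the core and of the regulatory particle lay on different sides of the table's median in the knockout, but that of the beta ring did not lie above it. All 17 regulatory particle subunits were lower, from -0.74 to -0.30 on the log2 scale with a median of -0.59, and 14 lay below the table's median. Of the 14 constitutive core genes, 12 were lower, with a median of -0.28, and 9 lay above the table's median. Over all rows with an SE, 49.2% lay above it. The summed FPKM of the regulatory particle was 7048 in WT and 4681 in Tet1-KO, and that of the core was 5200 and 4293. The alpha ring had a median of -0.23, and 6 of its 7 genes lay above the table's median. The beta ring had a median of -0.41, with 3 genes above the table's median and 4 below. Psmb4 had the lowest ratio of the core (285 and 203 FPKM, log2 -0.49, SE 0.33). Psma7 was at 497 and 448 FPKM (log2 -0.15, SE 0.30), Psmb7 at 364 and 348 FPKM (log2 -0.07, SE 0.30), and Psmb3 was higher in Tet1-KO (66.2 and 72.3 FPKM, log2 0.13, SE 0.41). Psmb5 was also higher in Tet1-KO (346 and 349 FPKM, log2 0.01, SE 0.30). Of the core genes above the table's median, Psma3, Psma4, Psma5, Psmb3, Psmb5 and Psmb7 share 22.0% to 57.1% of their 50-base windows with other genes. Psma1, Psma6 and Psma7, also above it, share none, and the core genes below it share at most 3.53%. The gap between the medians of the core and the regulatory particle, and the part of shared sequence in it, were not tested.

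**Figure D4:**
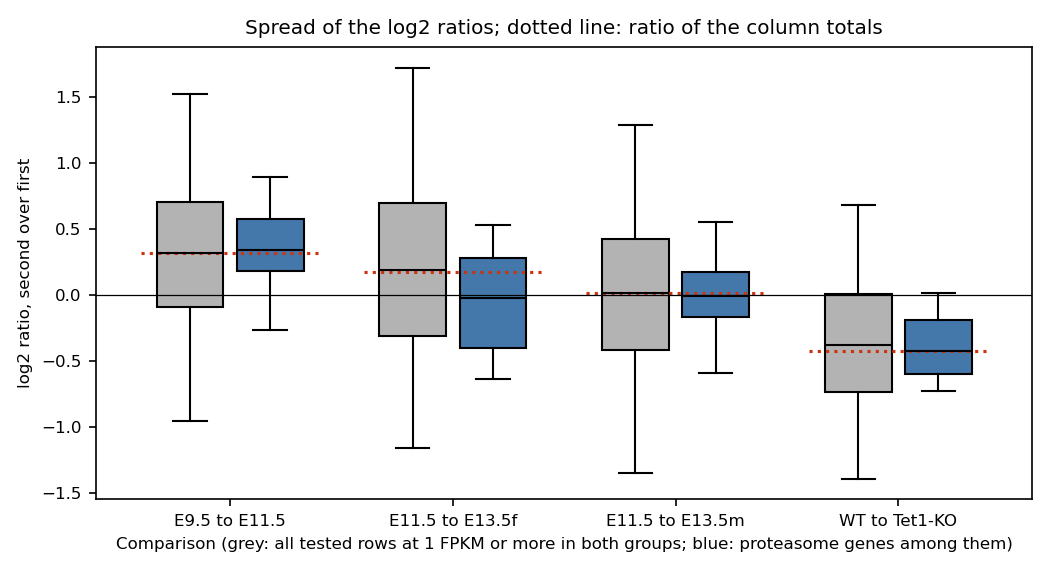
Distribution of log2 ratios for proteasome genes and for all rows at 1 FPKM or more in both columns, in the 4 comparisons; each box spans the middle 50% of rows, the line is the median, the whiskers reach percentiles 5 and 95, and the dotted line is the ratio of the column totals. The boxes of the proteasome genes are narrower in each comparison, for example 0.39 against 0.80 from E9.5 to E11.5 and 0.41 against 0.74 from WT to Tet1-KO.

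The proteasome genes were less dispersed than the rows as a whole. Over the 45, 43, 44 and 45 genes at 1 FPKM or more in both columns, the middle 50% of log2 ratios spanned 0.39 from E9.5 to E11.5, 0.69 from E11.5 to E13.5f, 0.34 from E11.5 to E13.5m and 0.41 from WT to Tet1-KO. The same span over all rows at 1 FPKM or more was 0.80, 1.01, 0.84 and 0.74. The proteasome genes are also far more abundant than the median row, and the part of abundance in this narrower spread was not tested. When every column was scaled to the same total, a choice made after the values were seen, their median log2 ratio was 0.02 from E9.5 to E11.5, -0.19 to E13.5f, -0.02 to E13.5m and 0.00 in the knockout.

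Several genes whose products deliver substrates to the proteasome, modify it or control its genes were called. A list of 28 such genes was drawn from their roles, with earlier results of these data known, and 27 were listed. From E9.5 to E11.5, 26 were tested and 1 was called higher (3.71% of all rows), namely Uchl5, a deubiquitinase of the regulatory particle (69.5 and 113 FPKM, log2 0.71, SE 0.14). That call was lost relative to the table's median. From E11.5 to E13.5f, 22 were tested, 2 were called higher (9.34% of all rows) and 2 lower (2.68%). Fbxo7, an F-box protein that binds the inhibitor PI31, rose from 5.67 to 47.3 FPKM (log2 3.06, SE 0.54). AI314180, the mouse gene for the proteasome adaptor ECM29, rose from 6.81 to 21.7 FPKM (log2 1.67, SE 0.47). The shuttle factors Ubqln2 and Ubqln4, which carry ubiquitinated proteins to the proteasome, fell from 16.3 to 5.13 FPKM and from 69.6 to 20.1 FPKM. From E11.5 to E13.5m, 22 were tested, 1 was called higher (2.94% of all rows) and 1 lower (1.94%). Fbxo7 rose (5.80 to 27.6 FPKM, log2 2.25, SE 0.56), and Nfe2l1, which encodes the transcription factor NRF1 that induces proteasome genes, fell (28.3 to 12.9 FPKM, log2 -1.14, SE 0.34).

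In the knockout comparison, of these genes 27 were tested, 3 were called higher (0.677% of all rows) and 3 lower (5.48%). Ubqln2 was higher in Tet1-KO (5.34 and 14.4 FPKM, log2 1.43, SE 0.44), as were Ubqln4 (20.9 and 43.9 FPKM, log2 1.07, SE 0.34) and Ddi2 (3.11 and 8.94 FPKM, log2 1.52, SE 0.49), the protease that activates NRF1. Fbxo7 was lower (49.3 and 14.3 FPKM, log2 -1.79, SE 0.41). Among the others called lower was Ubb, which encodes ubiquitin (6721 and 5260 FPKM). Its p-value is given as 0 in the authors' deposited table, which leaves no error, and its log2 ratio was 0.02 relative to the table's median. For Fbxo7, Ubqln2 and Ubqln4 the WT values lie close to the E13.5f values, as they do for the proteasome genes, so the knockout and E13.5f ratios of these 3 genes cannot be taken as independent. Other genes of the list differed between these columns, as did Zfand5 (47.1 FPKM at E13.5f and 135 FPKM in WT). The core assembly factor Pomp (221 and 281 FPKM at E9.5 and E11.5, 198 and 172 FPKM in WT and Tet1-KO) was not called in any table.

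Class I antigen presentation uses the peptides that the immunoproteasome makes in immune cells, and a pair of its genes was called while the immunoproteasome genes were not. Of 10 genes listed, 7 were tested from E11.5 to E13.5f, and 2 were called higher (9.34% of all rows): H2-K1 rose from 2.77 to 24.3 FPKM (log2 3.13, SE 0.74) and H2-D1 from 1.83 to 12.6 FPKM (log2 2.78, SE 0.79). In the knockout both were called lower, H2-K1 at 25.2 FPKM in WT and 3.08 FPKM in Tet1-KO and H2-D1 at 13.1 and 1.79 FPKM, with 8 tested (5.48% of all rows). The WT values of both genes lie close to their E13.5f values, so their knockout and E13.5f ratios cannot be taken as independent. No gene of this list was called from E9.5 to E11.5 or from E11.5 to E13.5m, where 8 and 7 were tested with Cuffdiff and unadjusted p was under 0.05 for 4 and 1. Psmb9, which lies beside Tap1 and shares 12.5% of its 50-base windows with it, was between 0 and 1.41 FPKM in all columns.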

How the data were processed

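Primordial germ cell RNA was amplified with a low-input cDNA kit and sequenced, per the labels' protocols. Reads were handled with TopHat 1.3.1, Bowtie, Cufflinks and Cuffdiff (1.2.1 for the stages, 1.0.3 for the knockout) on mm9, per the submitters' processing notes. The 4 tables deposited hold 1 pooled FPKM value per group, per the file headers. The p-value and q-value of each row, and the test statistic, a score, were deposited by the authors. In the knockout table the FDR deposited by the authors exceeds 1 in 2182 rows. The log2 values deposited by the authors were replaced by log2 ratios computed again from FPKM.

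Calls were the authors' at 0.05. The SE was the log2 ratio divided by the deposited statistic or, in the knockout table, by the normal deviate of the p-value (above 0.001). For list medians 1 FPKM was added before taking log2, which understates changes of low genes. Cuffdiff gave 5 rows, among them Hspa8 and Ubb, a status of too much data and a value of 0 in at least 1 E13.5 column. These rows were left out of all column totals, including Eef1a1 at E13.5m, where it has a value. The values of 1 gene of the pathway list are not reported here. Genes were named when called, when they form or partner an alternative subunit or activator, or when they were extreme within their role. The genes with an unadjusted p under 0.05 were named after their values were seen. Members and lists were chosen with earlier results of these data known. Fits were tested on simulated data. Python 3.11.15, pandas 2.3.3 and scipy 1.17.1 were used. Alternatives covered the threshold, a minimum FPKM, the pseudocount, centring and rescaling to TPM. Library depth is not given by FPKM, so no counting interval was computed.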

Additional observations from a re-analysis of the deposited data

How the results depend on the processing

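Direction and call held under the other settings for 60 summary values and 631 values of single genes, while 14 summary values moved and 4 turned sign. Of the single genes 39 turned sign, 9 lost a call and 3 gained one. Many values could not change. No symbol was repeated, so keeping 1 row per symbol altered nothing, and another threshold leaves a ratio as it is. The sign changes of single genes came from centring (18 turned, 76 the same) and TPM (21 turned, 74 the same). Calls moved at the threshold and with the scale. From E9.5 to E11.5 the 2 genes called higher became 0 at a threshold of 0.01 and 1 with a minimum of 1 FPKM in both groups, with each ratio relative to the table's median, or with columns rescaled to TPM (chosen after seeing the data). The median change of log2(FPKM + 1) over these genes was 0.33, and 0.035 relative to the median and 0.016 in TPM. For E13.5f the genes called lower went from 0 to 2 relative to the median and 1 in TPM, and the median change from 0.000193 to -0.17 and -0.14. For E13.5m the median change went from 0.01 to -0.0088 and -0.010. For the knockout the 1 gene called lower became 0 at 0.01, with a change of 1 or more on the log2 scale required, relative to the median and in TPM, and the median change went from -0.42 to -0.083 and -0.014. Centring and rescaling move every gene of a table by nearly 1 amount, which by construction turns the sign of small ratios.

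These signs are given for the genes chosen by the naming rule for each table; other proteasome genes with small ratios turned too. Relative to the median from E9.5 to E11.5 the sign turned for Psma7 (-0.11), Psmb6 (-0.17), Psmc5 (-0.28), Psmd8 (-0.15), Psmd10 (-0.31), Psme2 (-0.22), Psme3 (-0.14), Psmf1 (-0.13) and Psmg3 (-0.32). TPM gave these same values, and -0.0020 for Psmb5. For E13.5f it turned for Psmb6 (-0.049, TPM -0.031) and Psme3 (-0.12, TPM -0.098). In the knockout it turned for Psma7 (0.23, TPM 0.27), Psmb7 (0.31, TPM 0.36), Psmb9 (0.37, TPM 0.42), Psmc1 (0.045, TPM 0.090), Psmd8 (0.081, TPM 0.13), Psme1 (0.14, TPM 0.18) and Psmg3 (0.37, TPM 0.41), and in TPM for Psma2 (0.039) and Psmb2 (0.011). No paired analysis was possible because each column holds a pooled value with no value per library, and for the same reason leaving out a replicate was not run. Unknown depth limits what can be said of genes near 1 FPKM.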
